A study of Homo sapiens with 15 samples.

Results

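Interferon-stimulated genes are the genes a cell switches on when it senses interferon. A list of 45 of them, chosen by name from those known to be induced by type I interferon, was looked up among the 57773 genes of 15 bone marrow libraries, and all 45 were found. The marrow came from SCID-beige mice, immunodeficient animals without functional T and B cells, into which MM.1S cells had been injected intravenously. MM.1S is a single established human multiple myeloma line, here carrying GFP and luciferase, so all 5 groups carried the same tumour. After 5 mice had been assigned to each treatment, marrow from 3 per group was sequenced.

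The delayed combination group received bortezomib at 0.25 mg/kg with elesclomol at 25 mg/kg begun 14 days after inclusion, and the combination group received both drugs at those doses from the start. Bortezomib alone was given at 0.25 mg/kg into the peritoneum, weekly, and elesclomol alone at 25 mg/kg under the skin. Elesclomol was given every 3rd day of the week, and mice entered the study once the tumour reached a set bioluminescence. The control group is labelled PBS, while the protocol describes a weekly intravenous injection of saline. Bortezomib inhibits the proteasome, and elesclomol is an ionophore that carries copper into mitochondria. Femoral marrow was flushed when an animal became paralysed, so it was not taken at a fixed time after dosing. The pellets held mouse marrow cells beside the human tumour, and the counts are of human genes.

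Type I interferon binds a receptor made of IFNAR1 and IFNAR2, whose kinases JAK1 and TYK2 phosphorylate STAT proteins. STAT2 and IRF9 are parts of the factor ISGF3, which binds the interferon-stimulated response element upstream of its target genes. The products sense viral RNA, block translation, degrade RNA, tether virions or tag proteins with ISG15, and several restrain the growth or survival of the cell itself. Tumour cells can hold a basal level of these genes without added interferon.

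Many of the promoters, though not all, hold a sequence typical of such genes. Of the 45 genes, 36 have a promoter in the RefSeq table used (GRCh38.p14), and DDX58, IRF7, IFIT2, OAS2, OASL, MX2, USP18, PARP10 and TRIM22 do not. The core of the response element was searched as GAAA, any 2 bases and GAAA again, on both strands, in the 250 bases before each start, with overlapping matches counted. It was found before at least 1 start in 22 of the 36 genes (61.1%), against 1014 of 27305 genes in the table (3.71%). At least 2 matches were found in 12 of the 36 (33.3%), against 75 of all genes (0.275%). A match is a run of letters and not a measured binding site, and its absence says only that these letters are not in the window. The 200 bases before the start are printed 5′ to 3′ on the gene's strand, with matches in capitals. The first 5 are those of highest mean CPM that have the letters, among the genes that the rule for named genes gives in every library. SAMD9, of slightly higher mean CPM and with 1 match, is outside that rule, and its library values were added later. The other 4 were chosen after their values were seen, as genes of low p for a difference among the groups.
ISG20: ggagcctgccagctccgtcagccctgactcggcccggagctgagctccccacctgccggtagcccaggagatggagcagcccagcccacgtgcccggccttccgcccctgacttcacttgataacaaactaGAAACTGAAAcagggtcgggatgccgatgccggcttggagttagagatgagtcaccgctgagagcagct
BST2: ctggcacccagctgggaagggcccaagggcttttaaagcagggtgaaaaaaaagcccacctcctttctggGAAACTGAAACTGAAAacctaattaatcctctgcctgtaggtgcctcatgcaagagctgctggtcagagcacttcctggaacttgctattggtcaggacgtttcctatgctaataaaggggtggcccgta
PARP14: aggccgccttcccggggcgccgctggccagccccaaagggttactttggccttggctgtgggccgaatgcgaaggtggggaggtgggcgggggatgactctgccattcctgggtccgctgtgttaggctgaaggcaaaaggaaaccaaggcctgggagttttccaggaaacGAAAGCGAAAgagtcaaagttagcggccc
MX1: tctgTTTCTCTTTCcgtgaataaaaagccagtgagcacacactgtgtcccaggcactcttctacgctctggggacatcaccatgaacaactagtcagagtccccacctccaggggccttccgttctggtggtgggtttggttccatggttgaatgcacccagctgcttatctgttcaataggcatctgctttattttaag
IFIH1: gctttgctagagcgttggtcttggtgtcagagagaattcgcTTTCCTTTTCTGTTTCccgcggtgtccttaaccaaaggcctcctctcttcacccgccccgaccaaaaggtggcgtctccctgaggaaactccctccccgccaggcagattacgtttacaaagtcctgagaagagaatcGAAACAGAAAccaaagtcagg
DDX60: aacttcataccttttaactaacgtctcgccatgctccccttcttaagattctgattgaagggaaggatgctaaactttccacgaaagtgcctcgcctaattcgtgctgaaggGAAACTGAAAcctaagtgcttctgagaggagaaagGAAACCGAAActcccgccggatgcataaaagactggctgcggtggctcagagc
IFIT3: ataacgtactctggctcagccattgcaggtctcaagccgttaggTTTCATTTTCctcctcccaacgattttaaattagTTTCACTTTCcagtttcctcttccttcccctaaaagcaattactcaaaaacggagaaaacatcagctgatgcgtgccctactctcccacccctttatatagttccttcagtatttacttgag
IFIT1: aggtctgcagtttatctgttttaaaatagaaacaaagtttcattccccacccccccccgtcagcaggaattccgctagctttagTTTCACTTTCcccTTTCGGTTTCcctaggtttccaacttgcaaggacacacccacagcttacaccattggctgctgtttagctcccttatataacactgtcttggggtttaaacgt
IFI6: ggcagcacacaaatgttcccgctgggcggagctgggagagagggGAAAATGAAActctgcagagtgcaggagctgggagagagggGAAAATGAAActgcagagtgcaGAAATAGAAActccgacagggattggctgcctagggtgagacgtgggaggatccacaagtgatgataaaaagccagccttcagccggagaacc
On GRCh38.p14 these lie at chr15:88638816-88639015 (plus strand) for ISG20, chr19:17405631-17405830 (minus strand) for BST2, chr3:122680639-122680838 (plus strand) for PARP14, chr21:41431850-41432049 (plus strand) for MX1, chr2:162318685-162318884 (minus strand) for IFIH1, chr4:168318753-168318952 (minus strand) for DDX60, chr10:89327797-89327996 (plus strand) for IFIT3, chr10:89392423-89392622 (plus strand) for IFIT1 and chr1:27672193-27672392 (minus strand) for IFI6. In BST2 the 2 matches overlap in 1 run. IFIH1 and IFI6 have 3 matches each, and MX1 has 1, at position -196 of the start printed, the third of its 3 starts in the table. STAT2, IRF9, OAS1, EIF2AK2, ADAR, UBE2L6, HERC6, DTX3L, TRIM21, SP100, SAMD9L, CMPK2, IFI35 and XAF1 had no match in their windows.

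Total counts ran from 4500326 to 13161087 reads per library, of which genes of mitochondrial DNA held 35.03% to 40.31%. Plasma cell and myeloma markers summed to 13630 to 16860 CPM (reads scaled to the library total) per library, with all 10 genes tested. Markers of T and NK cells summed to at most 1.19 CPM, and KLRD1 had 0 reads in every library. Elesclomol 1 stood apart, with 469.5 CPM of erythroid markers against 148.3 to 199.7 CPM in the others, and 129 CPM of granulocyte markers against 6.96 to 32.17 CPM, while HBA1 had 0 reads throughout. It also held the most megakaryocyte (8.075 CPM) and endothelial (13.1 CPM) marker RNA. Macrophage markers ran from 16.62 to 74.96 CPM, stromal markers summed to 104.9 to 242.1 CPM, and dendritic cell markers from 105.4 to 317.5 CPM with IL3RA, CLEC4C and LILRA4 at 0. Most of the dendritic sum was TCF4 alone (88.4 to 293 CPM). Outside elesclomol 1 most of the erythroid sum was TFRC alone (118 to 180 CPM). These 2 sums therefore largely follow single genes and do not measure the content of those cells. Of the stromal markers, COL1A1 averaged 30.9 ± 19.7 CPM in delayed combination marrow, 18.8 ± 9.25 in combination, 22.2 ± 13.8 in bortezomib, 18.5 ± 12 in elesclomol and 3.32 ± 1.03 in PBS marrow (SD, n = 3 each), and COL1A2 averaged 31.6 ± 19.8 CPM in delayed combination marrow, 16.5 ± 5.14 in combination, 17.3 ± 8.55 in bortezomib, 16.1 ± 6.24 in elesclomol and 5.29 ± 3.77 in PBS marrow (SD, n = 3 each). For both collagen genes all 12 treated libraries lay above the 3 PBS libraries, and COL3A1 also averaged higher in each treated group. RUNX2 went the other way, averaging 29.2 CPM in delayed combination, 34.8 in combination, 35.2 in bortezomib, 35.6 in elesclomol and 44.3 in PBS marrow. SPARC averaged above PBS in the delayed combination and elesclomol groups and below it in the combination and bortezomib groups, so the stromal markers did not move together. Libraries of a group are separate tumours per the design text, and no more is said of their independence, so p-values measure the spread between these libraries. In 3 libraries (delayed combination 2, combination 1 and bortezomib 1) GC-rich genes stood higher and GC-poor genes lower, with correlations between GC content and deviation across all tested genes of 0.309, 0.486 and 0.498. The 3 PBS libraries all lay on the opposite side, at -0.281, -0.337 and -0.313. The remaining treated libraries ran from -0.299 (bortezomib 2) to 0.151 (elesclomol 3), and no treated group was negative in all its libraries. Comparisons with PBS therefore also run along this difference in GC content.

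A gene was tested when enough libraries held about 10 reads, and 42 of the 45 were, among 13085 genes in all. IFIT2, which blocks translation with the other IFIT proteins, had 2, 4 and 8 reads in delayed combination marrow, 1, 2 and 5 in combination, 3, 1 and 1 in bortezomib, 6, 9 and 5 in elesclomol, and 2, 2 and 1 in PBS marrow. OASL, an enzymatically inactive relative of the OAS enzymes, had 4, 2 and 3 reads in delayed combination marrow, 3, 0 and 1 in combination, 1, 2 and 9 in bortezomib, 2, 3 and 6 in elesclomol, and 2, 1 and 0 in PBS marrow. USP18, which strips ISG15 from proteins and shuts down the interferon receptor, had 4, 3 and 2 reads in delayed combination marrow, 5, 1 and 2 in combination, 5, 0 and 2 in bortezomib, 2, 5 and 4 in elesclomol, and 0, 2 and 2 in PBS marrow. All 3 stayed at or under 9 reads in every library. For IFIT2 every elesclomol library was above every bortezomib and PBS library. With no filter on low counts its log2 change for elesclomol against PBS was 1.57 ± 0.80 (SE, adjusted p = 0.892, edgeR), which did not pass. OASL and USP18 had libraries that overlapped between elesclomol and PBS.

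Per kilobase of exon, the 42 tested genes had a median of 4.19 CPM over all libraries, against 4.18 CPM per kilobase for all tested genes, with 21 genes above that median and 21 at or below it. The surface protein BST2 stood highest at 70.9 CPM per kilobase, followed by the RNA-editing enzyme ADAR at 64.3 and the ISG15-conjugating enzyme UBE2L6 at 20.5. The growth-restraining SAMD9L and SAMD9 came next, SAMD9 at 15.6 CPM per kilobase, then STAT2 at 14.7 and the exonuclease ISG20 at 14.3. MX2 (0.22), IFI44L (0.148) and DDX60L (0.144 CPM per kilobase) were the lowest. Genes usually read as markers of interferon action lay on both sides of the median of all tested genes. ISG15 at 6.59 and MX1 at 4.26 CPM per kilobase were above it. IFIT3 at 1.97, IFIT1 at 0.851 and RSAD2 at 0.373 CPM per kilobase were below it.

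**Figure D1:**
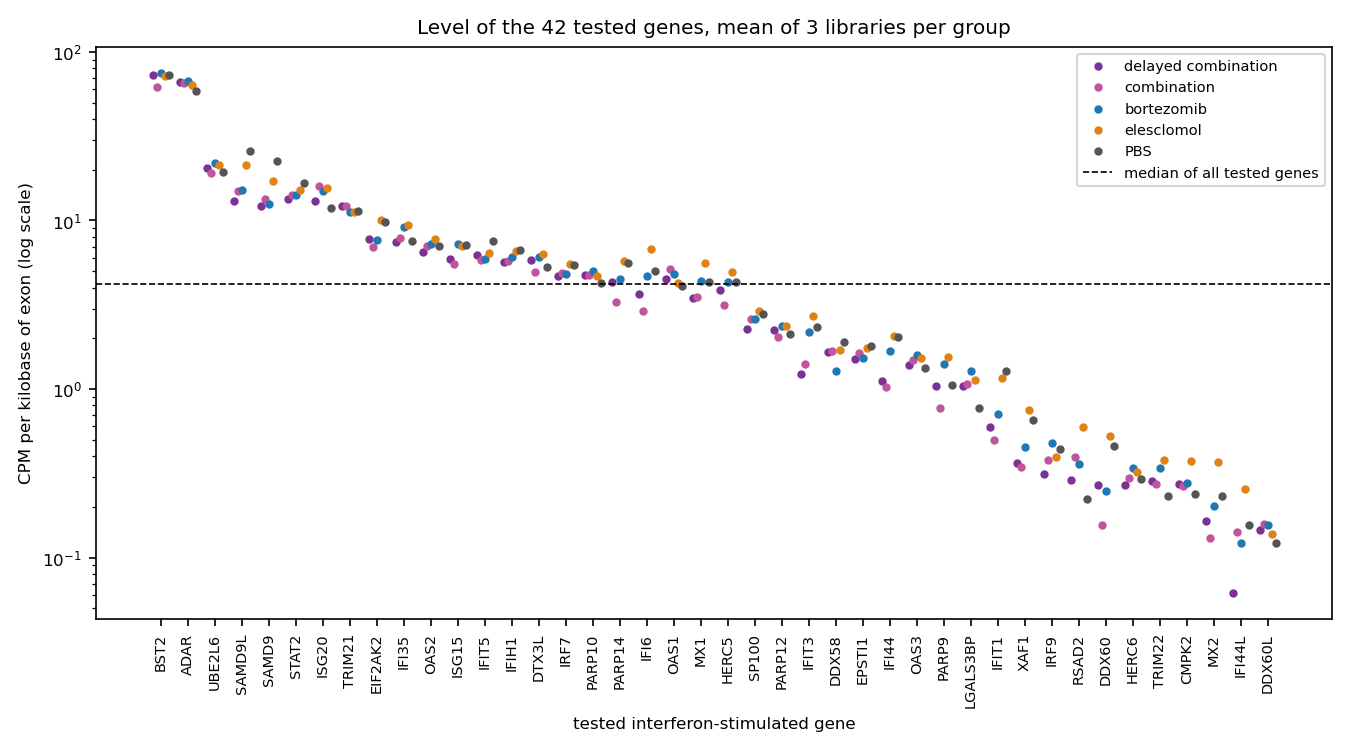
Mean level of the 42 tested interferon-stimulated genes in each group (CPM per kilobase of exon, log axis), ordered by mean over all libraries, each point the mean of 3 libraries. The dashed line is the median of all tested genes, 4.18, and the genes reach from 70.9 for BST2 to 0.144 for DDX60L.

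No interferon-stimulated gene passed the test in any comparison, but the list did not lie evenly over the groups. Elesclomol marrow held the highest of the 5 group means for 21 of the 42 genes and the lowest for 0, whereas it held the highest for 19.8% of all tested genes and the lowest for 19.8%. Combination marrow held the lowest mean for 16 of the 42 and delayed combination marrow for 14, against 20.4% and 17.4% of all tested genes. In bulk marrow, fewer cells of a type and less RNA per cell cannot be told apart. Tested for any difference among the 5 groups with the quasi-likelihood test of edgeR, adjusted by Benjamini-Hochberg, 0 of the 42 passed, as did 0% of the 13085 genes. At an unadjusted p under 0.05 there were 7 (DDX60, IFIT3, IFI44L, IFIT1, IFI6, MX1 and PARP14), against 9.4% of all tested genes. DESeq2 called 2 of the genes, DDX60 and IFIT3 (1.08% of all genes), and limma voom called 9 (8.3% of all genes). Without delayed combination 1, edgeR called 1, DDX60 (0.404% of all genes).

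**Figure D2:**
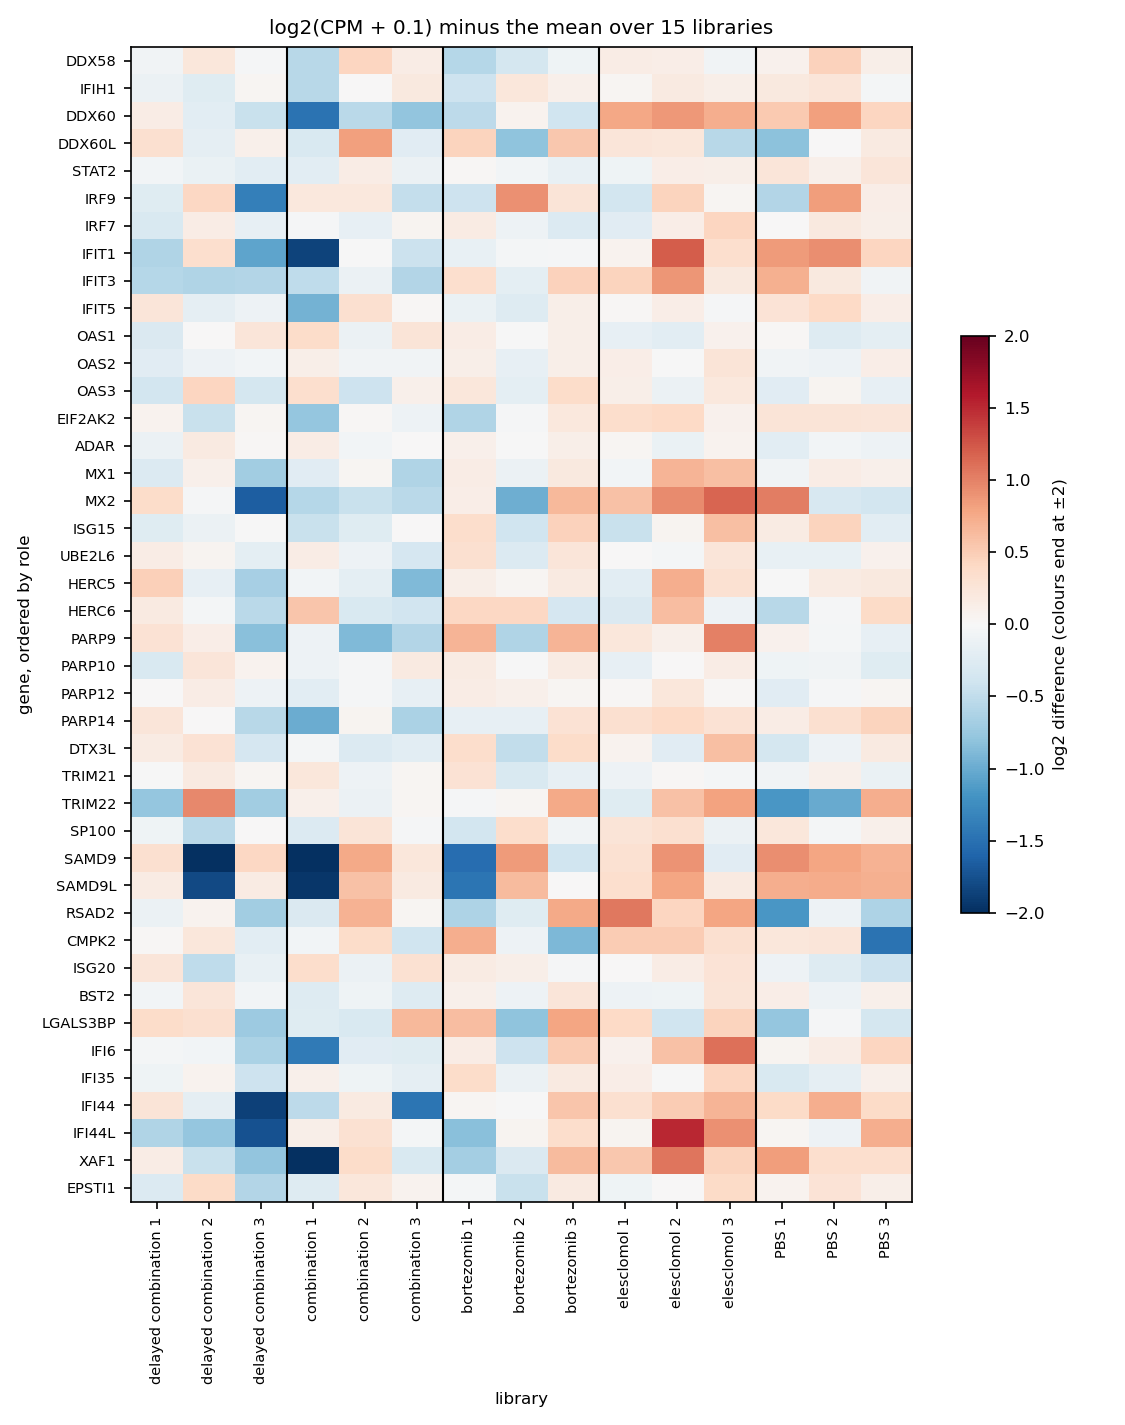
Level of each tested gene in each library as log2(CPM + 0.1) minus its mean over the 15 libraries, genes ordered by role and groups in blocks of 3. Elesclomol 2 and 3 held the highest value of the 15 for 11 and 9 genes, and combination 1 and delayed combination 3 the lowest for 11 and 7.

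The 4 comparisons with PBS share the same 3 PBS libraries, so their values are given side by side. In delayed combination marrow 15 of the 42 genes lay above 0 on the log2 scale and 27 below, with a median of -0.20 (all tested genes 0.01). In combination marrow 14 lay above and 28 below, with a median of -0.18 (all tested genes 0.01). In bortezomib marrow 21 lay on either side and the median was 0.005, against 0.019 for all genes. In elesclomol marrow 30 lay above and 12 below, with a median of 0.13 against 0.004. Shares of all tested genes above 0 were 51.3% in the delayed combination, 51.7% in the combination, 52.6% with bortezomib and 50.7% with elesclomol. By group means the list leaned down in both combination groups and up with elesclomol alone. All genes were read in the same libraries, so such counts are not separate evidence. Each library's median log2 deviation over the list was -0.046, 0.009 and -0.274 in delayed combination and -0.232, -0.038 and -0.112 in combination marrow. It was 0.114, -0.097 and 0.185 in bortezomib, 0.074, 0.225 and 0.264 in elesclomol, and 0.042, 0.105 and 0.117 in PBS marrow. Elesclomol 1 thus lay within the PBS range. The lean with elesclomol was larger with elesclomol 2 in the fit, the median being 0.035 without it, and the combination median was -0.281 without combination 2. Of the stromal markers, COL1A1 and COL1A2 stood higher in every treated group of these comparisons, and RUNX2 stood lower in each. With the mean log2 level of the host markers, stromal ones included, as a covariate the medians were -0.20 in the delayed combination, -0.183 in the combination, 0.029 with bortezomib and 0.147 with elesclomol. That mean includes TFRC and markers that moved in opposite directions, so it does not measure host cell content. The part of host cell content in these medians was not tested.

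By the edgeR test, 0 of the 42 genes passed against PBS in delayed combination, combination and bortezomib marrow (0% of all tested genes in each), and 0 in elesclomol marrow (0.0688% of all). Without adjustment, p was under 0.05 for 5 genes in delayed combination marrow, all lower (11.1% of all tested genes in either direction, 5.03% lower and 6.03% higher), and for 9 in combination marrow, 8 of them lower (13.6% of all, 5.92% lower). The same held for 3 in bortezomib marrow, all lower (10.6% of all, 3.84% lower), and 2 in elesclomol marrow, both higher (8.07% of all, 4.88% higher). All 3 delayed combination libraries lay below all 3 PBS libraries for 11 genes, against 14.7% of all tested genes, and above them for 0, against 12.8%. Combination libraries lay below PBS for 10 genes and above for 1, against 10.9% and 11.3% of all tested genes. Bortezomib libraries lay below for 7 and above for 3, against 9.61% and 10.5%, and elesclomol libraries below for 1 and above for 4, against 10.2% and 9.55%. DESeq2 called 1 gene, DDX60, in combination marrow (0.432% of all genes) and 0 against PBS elsewhere. limma voom called 6 in combination marrow (10.7% of all genes), 2 in bortezomib marrow (5.66%) and 0 in delayed combination and elesclomol marrow (1.28% and 0.413%).

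Against single agents the combinations were lower for most of the list. The combination lay below elesclomol alone for 36 of the 42 genes and above for 6, with a median of -0.24 (all tested genes -0.01, of which 48.9% lay above 0), and below bortezomib alone for 31, with a median of -0.17 (all tested genes -0.01, 47.3% above 0). The delayed combination lay below bortezomib for 37 of the 42, with a median of -0.16 (47.6% of all tested genes lay above 0). Set against the simultaneous combination it lay above for 21 and below for 21 (48.7% of all above). The edgeR test called 0 genes in each of these comparisons, as it did 0% of all tested genes. At an unadjusted p under 0.05 there were 12 genes for the combination against elesclomol, all lower (12.2% of all tested genes, 5.82% lower), and 3 against bortezomib, all lower (4.23% of all, 1.95% lower). For the delayed combination there was 1 against bortezomib, lower (3.52% of all, 2.24% lower), and 2 against the combination, 1 in each direction (2.63% of all). Combination libraries lay wholly below elesclomol for 11 genes, against 7.47% of all tested genes, and above for 0, against 8.57%, and wholly below bortezomib for 3, against 3.93%. Delayed combination libraries lay wholly below bortezomib for 1 gene and above for 1, against 3.86% and 2.83% of all. They lay wholly below the combination for 1 and above for 2, against 4.05% and 3.54%. For the combination against elesclomol, DESeq2 called 1 gene (0.405% of all genes) and limma voom 2 (1.57%), and both called 0 for the combination against bortezomib (0.00765% and 0.267% of all genes), for the delayed combination against bortezomib (0.0459% and 0.0535%) and against the combination (0% and 0%).

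The interaction asks whether bortezomib with elesclomol differed from what the single agents add up to on the log2 scale. It lay below 0 for 34 of the 42 genes and above for 8, with a median of -0.32 against -0.01 for all tested genes, of which 48.6% lay above 0. The edgeR test called 0 of them (0.00764% of all tested genes), and 5 had an unadjusted p under 0.05, all below 0 (8.79% of all in either direction, 5.22% below 0). DESeq2 and limma voom called 0 as well (0.245% and 2.37% of all genes). Among the 25 genes averaging 3 log2 CPM or more the median was -0.16. The interaction shares libraries with the comparisons above.

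**Figure D3:**
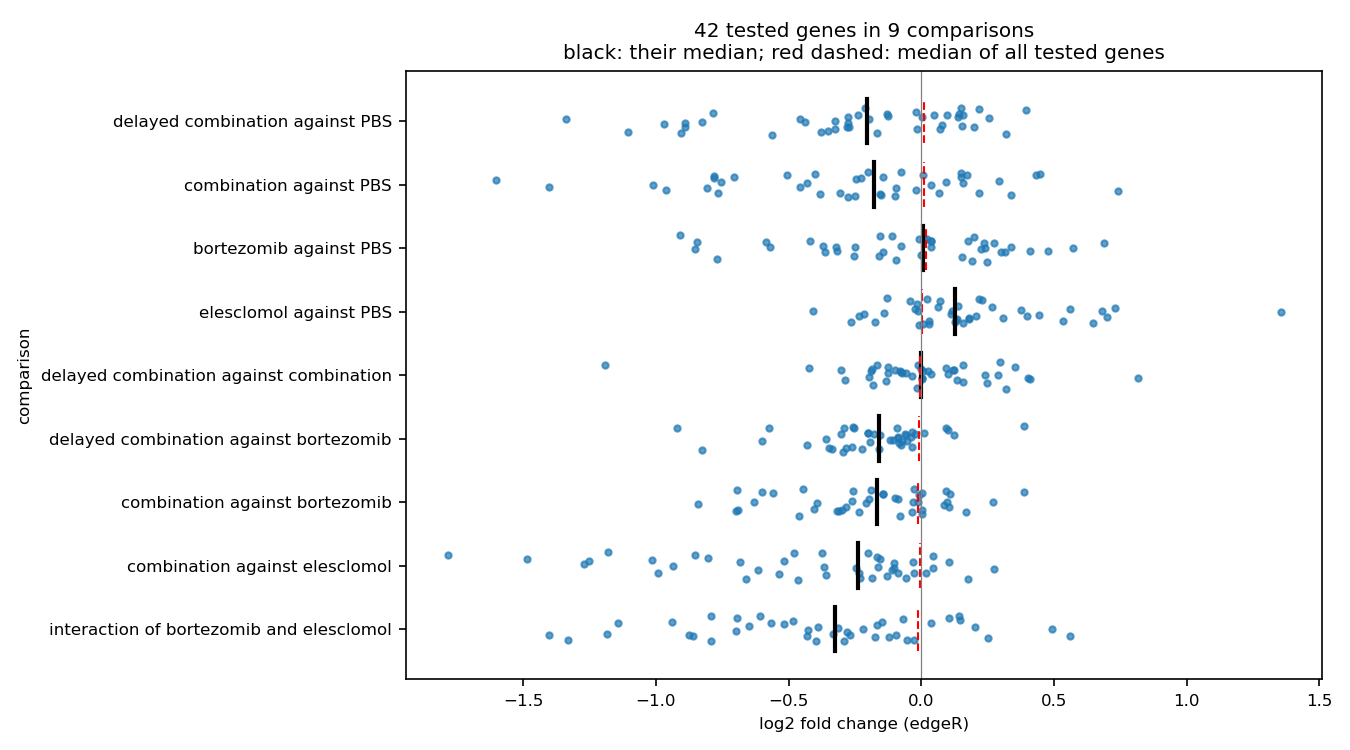
log2 fold changes of the 42 tested genes in 9 comparisons, 1 point per gene, with their median in black and the median of all tested genes as a red dashed line. The list's median is lowest for the interaction (-0.32) and the combination against elesclomol (-0.24), and highest for elesclomol against PBS (0.13).

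Upstream of the list, the human interferon genes themselves had few or no reads. Of 11 interferon genes looked up, 0 were tested: IFNG, the type II interferon, reached 4 reads in a library, and no type I or type III gene passed 2. All 6 receptor chains were tested, and 4 lay above 0 against PBS in the delayed combination, 5 in the combination, 4 with bortezomib and 4 with elesclomol. IFNAR1 ranged from 109 to 172 CPM and IFNAR2 from 37.9 to 66.7 CPM, with overlapping groups. IFNGR2, a chain of the receptor for interferon gamma, had 66.4, 74.5 and 75.4 CPM in delayed combination marrow, 79.9, 63.4 and 73.4 in combination, 75.6, 58.4 and 55.5 in bortezomib, 54.1, 55.7 and 63.8 in elesclomol, and 60.3, 53 and 57.1 in PBS marrow. All 6 libraries of both combination groups lay above the 3 PBS libraries, yet its log2 change did not pass (delayed combination 0.34 ± 0.13 SE, adjusted p = 0.401, and combination 0.35 ± 0.13, adjusted p = 0.299, edgeR).

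Among the kinases, JAK1 ranged from 83.5 to 107 CPM and lay lower in all bortezomib libraries than in those of PBS. TYK2 ranged from 61.6 to 79.2 CPM and lay higher in all combination libraries than in those of PBS. JAK2, which serves the interferon gamma receptor, had 26.2, 18.5 and 28.3 CPM in delayed combination marrow, 14.8, 34.9 and 27 in combination, 14.7, 32.6 and 24.9 in bortezomib, 27.3, 27.9 and 22 in elesclomol, and 38.4, 36.9 and 34.6 in PBS marrow. Apart from combination 2, every treated library lay below the PBS libraries, and the 3 GC-rich libraries were the lowest. PTPN6, a phosphatase that damps JAK signalling, averaged 169.8 ± 11.2 CPM in delayed combination, 184 ± 27 in combination and 160.3 ± 16.6 in bortezomib marrow, against 143 ± 1.79 CPM in PBS marrow (SD, n = 3 each). All 9 libraries with bortezomib in the treatment lay above those of PBS. None of the 10 tested kinase, STAT and inhibitor genes passed in any comparison.

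STAT2 had 86.3, 81.9 and 77.3 CPM in delayed combination marrow, 77, 98.9 and 82.6 in combination, 90.8, 86.2 and 80.8 in bortezomib, 84.1, 98 and 97 in elesclomol, and 106, 96 and 106 in PBS marrow. The delayed combination and bortezomib libraries all lay below the 3 PBS libraries, while combination and elesclomol overlapped them. The log2 change against PBS was -0.32 ± 0.11 (SE) in delayed combination marrow, with an adjusted p of 0.373, and -0.25 ± 0.11 in bortezomib marrow, with an adjusted p of 0.457 (edgeR). IRF7, the factor that amplifies type I interferon production, had 10.7, 14.6 and 11.8 CPM in delayed combination marrow, 13, 11.7 and 13.7 in combination, 14.8, 12.3 and 11 in bortezomib, 11.3, 14.6 and 17.8 in elesclomol, and 13.3, 15.1 and 14.4 in PBS marrow. Its groups overlapped throughout. IRF9 had 1.17, 1.91 and 0.486 CPM in delayed combination marrow, 1.66, 1.65 and 0.988 in combination, 1.04, 2.74 and 1.7 in bortezomib, 1.07, 1.96 and 1.46 in elesclomol, and 0.903, 2.59 and 1.56 in PBS marrow, between 4 and 21 reads a library, and its groups overlapped too. A coding gene on the same strand, AL136295.5, shares 48.4% of the exon bases of IRF9, so its counts are uncertain.

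DDX60 had the smallest p of the list in 4 of the 9 comparisons. It is a helicase reported to assist signalling by RIG-I-like sensors, and it had 2.26, 1.73 and 1.46 CPM in delayed combination marrow, 0.663, 1.35 and 1.13 in combination, 1.38, 2.13 and 1.51 in bortezomib, 3.5, 3.78 and 3.41 in elesclomol, and 2.93, 3.66 and 2.77 in PBS marrow. Every library that received bortezomib, alone or combined, lay below every elesclomol and PBS library, and the combination lay below bortezomib and the delayed combination as well. The group means were 1.82 ± 0.407 CPM in delayed combination marrow, 1.05 ± 0.352 in combination, 1.67 ± 0.402 in bortezomib, 3.56 ± 0.192 in elesclomol and 3.12 ± 0.472 in PBS marrow (SD, n = 3 each). Behind them are 6 to 28 reads per library. The log2 change was -1.78 ± 0.31 (SE) for the combination against elesclomol (adjusted p = 0.0888, edgeR), and over the alternatives it ran from -2.02 to -1.51 with adjusted p from 0.00416 to 0.307. Against PBS it was -0.78 ± 0.29 in delayed combination marrow (adjusted p = 0.401), -1.60 ± 0.33 in combination marrow (adjusted p = 0.158) and -0.91 ± 0.31 in bortezomib marrow (adjusted p = 0.427), all by edgeR. None of these passed, and combination 1, the lowest library, is among the GC-rich ones. DESeq2, limma voom and the fit with no filter called the combination against PBS and against elesclomol, and limma voom also called bortezomib against PBS (adjusted p = 0.0419). Without the 3 GC-rich libraries the change was -1.51 against elesclomol and -1.32 against PBS.

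DDX58 encodes RIG-I, the sensor of viral RNA ends, and had 6.69, 8.2 and 6.89 CPM in delayed combination marrow, 4.75, 9.47 and 7.76 in combination, 4.72, 5.48 and 6.61 in bortezomib, 7.77, 7.7 and 6.7 in elesclomol, and 7.45, 9.75 and 7.62 in PBS marrow. The 3 bortezomib libraries were the only group below all PBS libraries, at a log2 change of -0.59 ± 0.24 (SE, adjusted p = 0.457, edgeR). IFIH1, or MDA5, which senses long duplex RNA, had 28.7, 26.2 and 31.9 CPM in delayed combination marrow, 21, 31.3 and 35.7 in combination, 23.4, 36.3 and 33.4 in bortezomib, 32, 35.1 and 33.6 in elesclomol, and 35.4, 36.7 and 30.3 in PBS marrow. All delayed combination libraries lay below those of elesclomol, the other groups overlapped, and the lowest values were in combination 1 and bortezomib 1. DDX60L, the neighbour and relative of DDX60 on chromosome 4, had 2.09, 1.46 and 1.78 CPM in delayed combination marrow, 1.33, 3.01 and 1.41 in combination, 2.3, 0.914 and 2.46 in bortezomib, 1.98, 1.96 and 1.1 in elesclomol, and 0.903, 1.68 and 1.9 in PBS marrow. It did not follow DDX60: bortezomib and combination libraries overlapped those of PBS.

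The IFIT proteins bind foreign RNA and stop its translation, and their genes lie together on chromosome 10. IFIT3, which stabilises IFIT1 on RNA, had 3.26, 3.19 and 3.24 CPM in delayed combination marrow, 3.42, 4.51 and 3.25 in combination, 6.21, 4.27 and 6.8 in bortezomib, 6.7, 9.1 and 5.6 in elesclomol, and 8.13, 5.64 and 4.67 in PBS marrow. The delayed combination libraries were nearly equal to each other and lay below every bortezomib, elesclomol and PBS library, and the combination lay below elesclomol and PBS. Group means were 3.23 ± 0.038 CPM in delayed combination marrow, 3.73 ± 0.684 in combination, 5.76 ± 1.33 in bortezomib, 7.13 ± 1.79 in elesclomol and 6.15 ± 1.78 in PBS marrow (SD, n = 3 each), on 23 to 65 reads a library. The log2 change against PBS was -0.90 ± 0.26 (SE) in delayed combination marrow, with an adjusted p of 0.301 by edgeR. It was -0.94 ± 0.26 for the combination against elesclomol (adjusted p = 0.209) and -0.83 ± 0.25 for the delayed combination against bortezomib (adjusted p = 1), neither passing by edgeR.

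IFIT1, which binds RNA caps that lack the host methyl mark, had 2.26, 4.37 and 1.62 CPM in delayed combination marrow, 0.884, 3.46 and 2.54 in combination, 3.11, 3.35 and 3.4 in bortezomib, 3.66, 8.12 and 4.38 in elesclomol, and 6.32, 6.71 and 4.67 in PBS marrow. All 9 libraries with bortezomib in the treatment lay below the 3 PBS libraries, and elesclomol 2 was the highest of the 15. In combination marrow the log2 change against PBS was -1.40 ± 0.45 (SE, adjusted p = 0.28, edgeR). IFIT5, which binds RNA with triphosphate ends, ranged from 12.9 to 33.2 CPM, lowest in combination 1. Of the 3 tested IFIT genes, 3 lay below 0 in the delayed combination, the combination and bortezomib against PBS, and 1 lay above 0 with elesclomol. By the filtered edgeR test 0 passed.

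**Figure D4:**
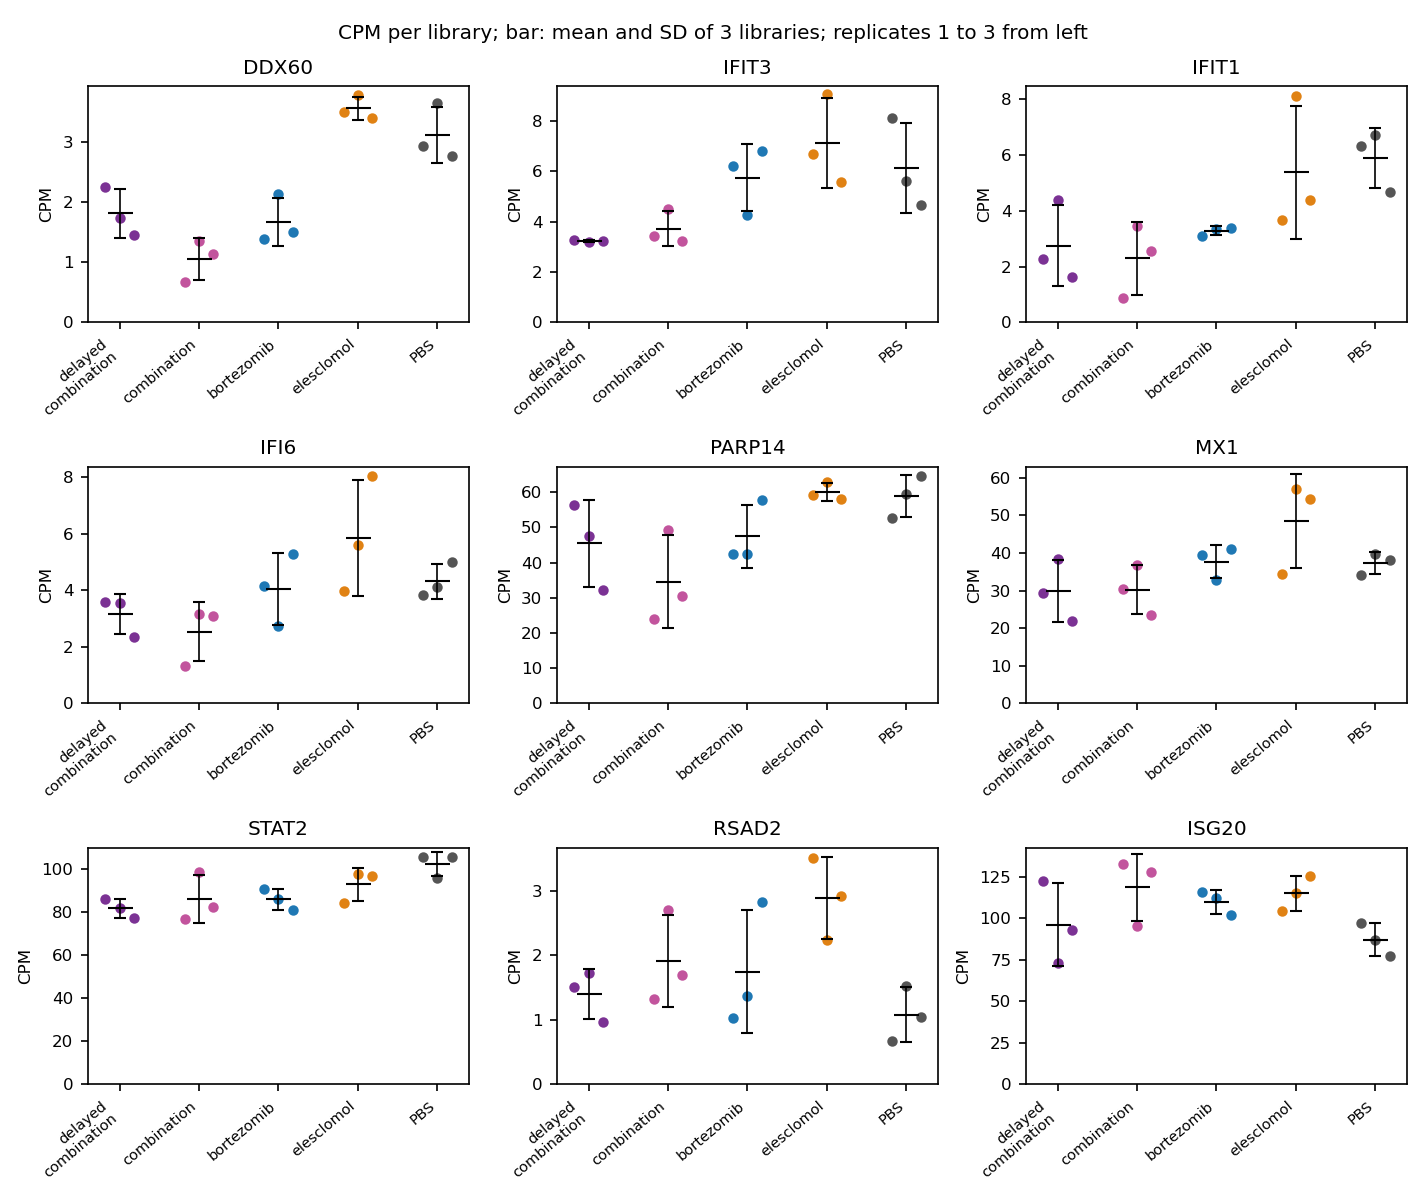
CPM of 9 interferon-stimulated genes in each library (points), with the mean and SD of the 3 libraries of a group (bars). DDX60 lies between 0.663 and 2.26 CPM in the 9 bortezomib-treated libraries and between 2.77 and 3.78 CPM in elesclomol and PBS, IFIT3 and IFIT1 run low in both combination groups, and RSAD2 and ISG20 have their lowest group mean in PBS.

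The OAS enzymes make a short adenylate messenger that activates RNase L, and their genes sit side by side on chromosome 12. OAS1 had 18.2, 22.5 and 26.3 CPM in delayed combination marrow, 28.7, 20.4 and 26.8 in combination, 24.7, 22.2 and 24.2 in bortezomib, 19.8, 19.3 and 23.7 in elesclomol, and 22.6, 18.6 and 19.4 in PBS marrow. OAS3 had 9.2, 15.9 and 9.32 CPM in delayed combination marrow, 15, 8.87 and 12.7 in combination, 13.9, 10.4 and 15.3 in bortezomib, 12.9, 10.9 and 13.8 in elesclomol, and 10.2, 12.3 and 10.6 in PBS marrow. OAS2 ranged from 37.8 to 53.1 CPM. Groups overlapped for OAS1 and OAS3, and for OAS2 all delayed combination libraries lay below those of elesclomol. Of the 3 genes, 0 had an unadjusted p under 0.05 in any comparison with PBS.

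EIF2AK2 encodes PKR, the kinase that halts translation on duplex RNA, and had 92.7, 65.2 and 91.4 CPM in delayed combination marrow, 51.6, 90.2 and 82.2 in combination, 58.1, 87 and 103 in bortezomib, 113, 117 and 94.3 in elesclomol, and 106, 107 and 105 in PBS marrow. PBS libraries were nearly equal, and the libraries of the delayed combination, the combination and bortezomib all lay below them, the GC-rich library lowest in each of the 3 groups. After correction for GC content and length the gap between those libraries and their group mates shrank to -0.20 on the log2 scale, against -0.65 before it. ADAR, which edits adenosine to inosine in duplex RNA and so keeps the cell's own RNA from being sensed, had 574, 705 and 634 CPM in delayed combination marrow, 685, 601 and 623 in combination, 664, 619.6 and 673 in bortezomib, 638, 565 and 649.6 in elesclomol, and 538, 595 and 580.2 in PBS marrow. Combination and bortezomib libraries lay above PBS, by a small margin, and it varied least of the 42 genes, 1.31-fold between the highest and lowest library.

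MX1, a GTPase that traps viral nucleocapsids, had 29.5, 38.4 and 21.9 CPM in delayed combination marrow, 30.5, 36.7 and 23.6 in combination, 39.3, 32.8 and 41 in bortezomib, 34.3, 57 and 54.3 in elesclomol, and 34.1, 39.6 and 38.3 in PBS marrow. Elesclomol 2 and 3 were above every other library and elesclomol 1 was not. Group means were 29.9 ± 8.25 CPM in delayed combination marrow, 30.2 ± 6.56 in combination, 37.7 ± 4.35 in bortezomib, 48.5 ± 12.4 in elesclomol and 37.3 ± 2.88 in PBS marrow (SD, n = 3 each). No difference passed by edgeR with the filter on low counts. With no filter edgeR called MX1 for the combination against elesclomol (adjusted p = 0.00149) and for any difference among the groups (adjusted p = 0.000501). Under limma voom MX1 was also called for any difference (adjusted p = 0.043). MX2, its relative that acts at the nuclear pore, had 3.26, 2.46 and 0.73 CPM in delayed combination marrow, 1.66, 1.8 and 1.69 in combination, 2.76, 1.22 and 3.97 in bortezomib, 3.81, 4.9 and 5.72 in elesclomol, and 5.19, 1.98 and 1.9 in PBS marrow. All 3 combination libraries lay below those of elesclomol and PBS, but 1 PBS library was as high as elesclomol and the other 2 were near the combination. Between 8 and 47 reads stand behind each MX2 value.

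ISG15 is a ubiquitin-like protein that is joined to other proteins, and it had 5.1, 5.56 and 6 CPM in delayed combination marrow, 4.42, 5.11 and 6.07 in combination, 7.71, 4.57 and 8.31 in bortezomib, 4.42, 6.3 and 9.25 in elesclomol, and 6.77, 8.23 and 5.19 in PBS marrow. All 5 groups overlapped, with means from 5.2 ± 0.829 CPM in combination to 6.86 ± 2.01 CPM in bortezomib marrow (SD, n = 3 each). UBE2L6, the enzyme that carries it, had 49.6, 46.5 and 38.7 CPM in delayed combination marrow, 49.3, 41.8 and 35.3 in combination, 55.6, 36.7 and 52.7 in bortezomib, 44.9, 43.3 and 52.6 in elesclomol, and 40.2, 40.4 and 47.6 in PBS marrow. These groups overlapped as well. HERC5, the ligase that attaches ISG15 in human cells, ranged from 10.2 to 31.5 CPM, and its relative HERC6, the main ligase in mouse, from 1.13 to 2.66 CPM. Of the 4 tested genes of ISG15 conjugation, 3 lay below 0 in both combination groups against PBS, and 0 passed.

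PARP9 and DTX3L form a ubiquitin ligase complex, and PARP10, PARP12 and PARP14 add single ADP-ribose units to proteins. PARP14 had 56.5, 47.7 and 32.3 CPM in delayed combination marrow, 23.9, 49.3 and 30.5 in combination, 42.3, 42.4 and 57.8 in bortezomib, 59.1, 62.8 and 58.1 in elesclomol, and 52.8, 59.6 and 64.7 in PBS marrow. All combination libraries lay below those of elesclomol and PBS, and the delayed combination and bortezomib libraries below those of elesclomol. The log2 change of the combination against PBS was -0.78 ± 0.24 (SE, adjusted p = 0.28, edgeR), and without the 3 GC-rich libraries it was -0.56. PARP9 had 11.9, 10.8 and 5.43 CPM in delayed combination marrow, 9.06, 5.26 and 6.49 in combination, 15.6, 6.4 and 15.7 in bortezomib, 11.4, 10.5 and 19.7 in elesclomol, and 10.4, 9.45 and 8.65 in PBS marrow. Elesclomol libraries lay just above PBS and well above the combination, while bortezomib and the delayed combination had both high and low libraries. It had the smallest p of the list for the interaction, with a log2 value of -1.40 ± 0.53 (SE, adjusted p = 0.484, edgeR). DTX3L, which lies head to head with PARP9 on chromosome 3 and shares 217 exon bases with it, ranged from 23.3 to 49.7 CPM. PARP10 ranged from 22.9 to 33.5 CPM and PARP12 from 12 to 16.4 CPM.

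RSAD2, or viperin, makes a chain-terminating nucleotide that stops viral polymerases, and had 1.51, 1.73 and 0.973 CPM in delayed combination marrow, 1.33, 2.71 and 1.69 in combination, 1.04, 1.37 and 2.83 in bortezomib, 3.5, 2.24 and 2.92 in elesclomol, and 0.677, 1.52 and 1.04 in PBS marrow. All elesclomol libraries lay above all PBS libraries, and single bortezomib and combination libraries reached the elesclomol range. It was the gene of the list with the smallest p for elesclomol against PBS, at a log2 change of 1.35 ± 0.45 (SE), but the adjusted p was 0.46 by edgeR. PBS values rest on 3, 10 and 6 reads. The highest library, elesclomol 1, was the one with the most erythroid and granulocyte marker RNA. Without it the change was 1.20, and with the mean log2 level of host cell markers as a covariate it was 0.99. CMPK2, a mitochondrial nucleotide kinase encoded beside RSAD2 on chromosome 2, ranged from 0.346 to 1.96 CPM, and elesclomol libraries again lay above PBS.

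ISG20, an exonuclease that degrades RNA, had 122, 72.8 and 93.1 CPM in delayed combination marrow, 133, 95.3 and 128 in combination, 116, 112 and 102 in bortezomib, 104, 115 and 125 in elesclomol, and 97.1, 86.9 and 77.5 in PBS marrow. Bortezomib and elesclomol libraries lay above those of PBS, and 2 of the 3 combination libraries did. The log2 change of elesclomol against PBS was 0.40 ± 0.17 (SE, adjusted p = 0.586, edgeR). All 3 genes of this nucleotide and RNA enzyme group lay above 0 in each of the 4 comparisons with PBS, and 0 passed by the filtered edgeR test.

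BST2, or tetherin, holds budding virions at the cell surface and is also a known surface antigen of myeloma cells. It had 76.1, 93 and 76.3 CPM in delayed combination marrow, 66.3, 74.4 and 65.9 in combination, 84.6, 73.7 and 93.1 in bortezomib, 73.3, 74.6 and 94.2 in elesclomol, and 86.7, 73.5 and 84.8 in PBS marrow. Combination libraries lay below those of the delayed combination and overlapped the rest, with a log2 change of the delayed combination against the combination of 0.25 ± 0.13 (SE, adjusted p = 1, edgeR). LGALS3BP, a secreted glycoprotein that binds galectins, had 4.6, 4.47 and 2.11 CPM in delayed combination marrow, 2.98, 2.86 and 5.65 in combination, 5.52, 1.98 and 6.23 in bortezomib, 4.72, 2.66 and 4.87 in elesclomol, and 2.03, 3.51 and 2.77 in PBS marrow. Its groups overlapped throughout.

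IFI6, which protects mitochondria from death signals, had 3.6, 3.55 and 2.35 CPM in delayed combination marrow, 1.33, 3.16 and 3.11 in combination, 4.14, 2.74 and 5.29 in bortezomib, 3.96, 5.6 and 8.03 in elesclomol, and 3.84, 4.12 and 5.02 in PBS marrow. All libraries of both combination groups lay below those of PBS and elesclomol. The log2 change of the combination against elesclomol was -1.25 ± 0.35 (SE, adjusted p = 0.223, edgeR), and without combination 1, the lowest library, it was -0.91. IFI35, a partner of the STAT-binding protein NMI, had 15.2, 17 and 12.1 CPM in delayed combination marrow, 17.2, 15.2 and 14.3 in combination, 20.8, 14.8 and 18.3 in bortezomib, 17.7, 16 and 21.7 in elesclomol, and 13.1, 14.2 and 17.3 in PBS marrow. Its groups overlapped.

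IFI44L, an interferon-induced gene beside IFI44 on chromosome 1, had 0.837, 0.729 and 0.324 CPM in delayed combination marrow, 1.44, 1.65 and 1.27 in combination, 0.69, 1.37 and 1.7 in bortezomib, 1.37, 3.92 and 2.56 in elesclomol, and 1.35, 1.22 and 2.25 in PBS marrow. The delayed combination libraries lay below those of the combination, elesclomol and PBS, and elesclomol 2 stood highest. The log2 change of the delayed combination was -1.19 ± 0.48 (SE) against the combination, with an adjusted p of 1 by edgeR, on 4 to 28 reads a library. IFI44 ranged from 0.73 to 4.88 CPM, lowest in delayed combination 3 and combination 3. XAF1, which counters the survival protein XIAP, ranged from 0.552 to 6.44 CPM, lowest in combination 1. 38.3% of its exon bases overlap a transcript on the other strand, and the strand setting of the counting is not given in the sources used here. EPSTI1 ranged from 5.27 to 10.4 CPM with overlapping groups.

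TRIM22, a ubiquitin ligase of the antiviral TRIM family, had 0.92, 3.28 and 0.973 CPM in delayed combination marrow, 1.77, 1.5 and 1.69 in combination, 1.61, 1.68 and 2.83 in bortezomib, 1.37, 2.52 and 2.92 in elesclomol, and 0.677, 0.762 and 2.77 in PBS marrow. Groups overlapped, and 10.7% of its exon bases are shared with OR56B1. TRIM21, which detects antibody-coated virus in the cytosol, ranged from 18.1 to 27.4 CPM, and SP100, a component of PML nuclear bodies, from 22.4 to 41.9 CPM. Both varied less than 2-fold.

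SAMD9 and SAMD9L, neighbours on chromosome 7 that restrain translation and growth, had wide ranges within groups. They are given in full, a choice made after their values were seen. SAMD9 had 110.3, 22.2 and 118 CPM in delayed combination marrow, 21.4, 149.7 and 103 in combination, 30.7, 161 and 66.9 in bortezomib, 110.0, 165 and 75.8 in elesclomol, and 168, 153 and 144 in PBS marrow. SAMD9L had 124, 31.6 and 125 CPM in delayed combination marrow, 28.6, 166 and 126 in combination, 40.1, 172 and 111 in bortezomib, 139.9, 192 and 125 in elesclomol, and 183, 185 and 181 in PBS marrow. The lowest values of both were in delayed combination 2, combination 1 and bortezomib 1, which are the 3 GC-rich libraries. The log2 difference from their group mates averaged -2.21 for SAMD9 and -2.03 for SAMD9L, and -1.65 and -1.64 after correction for GC content and length. The comparisons between groups were also refitted with that correction and without the 3 GC-rich libraries. Both refits are among the alternatives named below, but the list medians under them are not printed. The part of GC content in the difference between groups was not tested beyond these refits. Their longest transcripts have a GC content of 36.0% and 38.5%, against a median of 45.3% for the list and 47.4% for all tested genes. Across the 42 genes GC content and this difference correlated at 0.467 (Pearson, all in the same 9 libraries), against 0.52 across all tested genes. The 3 libraries were picked for their GC trend, so a positive correlation was fixed by that choice and is no separate result.

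**Figure D5:**
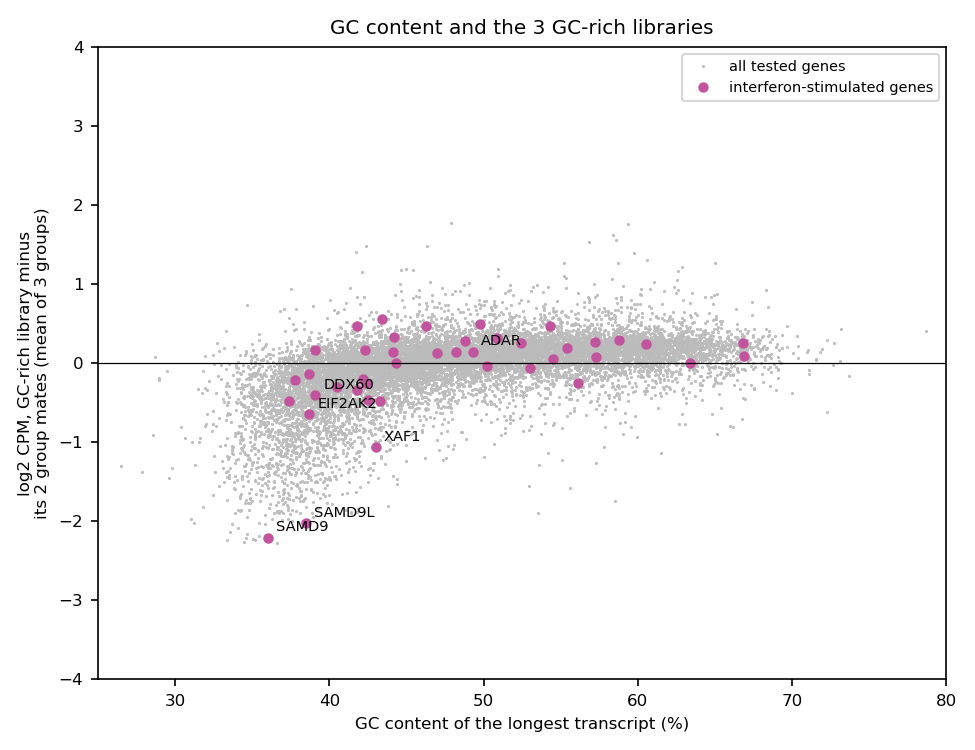
GC content of the longest transcript (%) against the log2 CPM of the 3 GC-rich libraries minus their 2 group mates, averaged over the 3 groups, for all tested genes (grey) and interferon-stimulated genes (coloured). SAMD9 and SAMD9L lie lowest of the list at -2.21 and -2.03, and 18 of the 42 genes lie below 0.

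Of 37 further interferon-induced genes outside the list of 45, 32 were tested, and against PBS 14 lay above 0 and 18 below in delayed combination marrow (median -0.02), 16 and 16 in combination marrow (median -0.01), 21 and 11 in bortezomib marrow (median 0.07) and 24 and 8 in elesclomol marrow (median 0.11). None of the 32 passed by edgeR in any comparison. The antiviral membrane protein IFITM1 had 1.26, 0.911 and 0.973 CPM in delayed combination marrow, 1.55, 1.2 and 1.13 in combination, 1.73, 1.52 and 1.51 in bortezomib, 0.762, 1.68 and 1.7 in elesclomol, and 0.677, 0.762 and 0.519 in PBS marrow, and RNF213, a large ubiquitin ligase, had 172, 181 and 154 CPM in delayed combination marrow, 164, 194 and 169.9 in combination, 219.8, 194 and 260.4 in bortezomib, 259.8, 239 and 251 in elesclomol, and 172, 211 and 212 in PBS marrow. IFITM1 was higher than in every PBS library in 11 of the 12 treated libraries, and elesclomol 1 was level with the highest PBS library. RNF213 was higher in all elesclomol libraries than in PBS and lower in both combination groups than in elesclomol. HELZ2, a helicase that acts as a transcriptional coactivator, averaged 8.75 ± 2.63 CPM in delayed combination marrow, 10.0 ± 1.67 in combination, 9.87 ± 1.98 in bortezomib, 10.9 ± 2.04 in elesclomol and 6.46 ± 0.335 in PBS marrow (SD, n = 3 each). TRIM38, a ubiquitin ligase that limits innate signalling, averaged 27.2 ± 0.862 CPM in delayed combination marrow, 27.1 ± 0.999 in combination, 28 ± 2.96 in bortezomib, 29.9 ± 0.901 in elesclomol and 33 ± 0.891 in PBS marrow (SD, n = 3 each), and all 12 treated libraries lay below those of PBS. Of the 14 genes that respond mainly to interferon gamma 11 were tested, and 4 lay above 0 and 7 below in each combination group against PBS, with medians of -0.23 in the delayed combination and -0.28 in the combination. The 10 tested genes of the sensing pathway upstream (Toll-like receptors, adaptors, kinases and IRF factors) lay above 0 for 9 in combination marrow and 5 in delayed combination marrow. In all of these lists 0 genes passed in the 9 comparisons.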

How the data were processed

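Trizol-extracted RNA went into the TruSeq Stranded Total RNA kit with Ribo-Zero Gold, per the labels' protocols. The deposited values are raw read counts per gene, made by the authors with STAR 2.5.4b and featureCounts 1.6.1 on GRCh37, per the submitters' processing notes. For the annotation release, strand setting and mouse reads, the method was not given in the sources used here. Gene names and exon lengths came from GENCODE 29 (52338 identifiers matched).

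Members, lists and the rule for named genes were chosen with earlier results of these data known. Values in every library are given for the 3 genes of smallest p in each comparison with PBS and in the interaction, the 3 highest and 3 lowest per kilobase, and a set of well-known members, with the others by range. Pathway genes outside the list are named where they have the 2 smallest p of their list against PBS or are receptor, JAK or STAT genes; some items are not reported here.

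All 15 libraries were fitted together in edgeR 4.0.16 (filterByExpr with a minimum of 10, TMM scaling, robust quasi-likelihood fit, biological coefficient of variation 0.171). P-values were adjusted by Benjamini-Hochberg over 13085 genes, with a threshold of 0.05. CPM scales each count to the library's total over the tested genes, multiplied by its TMM factor. Of 92 pathway genes 90 matched and 69 were tested, and of 83 cell type markers 81 matched (not MRC1 and PECAM1). Every pair of same-group libraries differed by more than counting noise (chi-square per degree of freedom 2.17 to 26.01). The procedure was tested on simulated data. Alternatives were DESeq2 1.42.0, limma 3.58.1 voom, DESeq2 size factors, other filters, a GC and length correction (loess, span 0.3), a host marker covariate, a replicate block, fits of only the groups compared, and leaving out libraries. R 4.3.3, Python 3.11.15, pandas 2.3.3 and matplotlib 3.10.9 were used.

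The labels number replicates 1 to 3 in each group without giving a source for a pairing. Same-numbered deviations correlated at 0.637, 0.502 and 0.109 between combination and bortezomib libraries, and not all above 0.1 between any other pair of groups. Any pairing of those 2 groups is therefore read from the data and not given by the design. Their same-numbered libraries also had like correlations with GC content. These were 0.486 and 0.498 for replicate 1, -0.244 and -0.299 for replicate 2, and 0.081 and 0.072 for replicate 3 (combination first). The part of GC content in this likeness was not tested.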

Additional observations from a re-analysis of the deposited data

How the results depend on the processing

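Of 185 recomputed counts of interferon-stimulated genes that passed, 173 stayed the same and 12 moved, all up from 0, and 155 of 160 recomputed medians stayed within the allowed range. That range was the SD, within the groups compared, of each library's median deviation over the list. For some comparisons it is as large as the median itself or nearly so, so staying within it does not show that a median is stable. Of 462 recomputed changes of single genes 0 reversed and 14 came to pass the threshold. Those genes were picked for the smallest p in each comparison of the same libraries. A reversal was therefore unlikely from the start, and the count says nothing of the rest of the list. limma voom called 6 genes for the combination against PBS (DDX60, IFI44, IFIT1, ISG20, PARP14 and STAT2) and 2 for bortezomib against PBS (DDX60 and STAT2). It called 2 for the combination against elesclomol (DDX60 and PARP14) and 9 for any difference among groups. DESeq2 called 1, 1 and 2 for the combination against PBS, the combination against elesclomol and any difference. With no filter on low counts the numbers were 4 for the combination against PBS (DDX60, EIF2AK2, IFIT1 and PARP14, 0.602% of all genes) and 1 for the delayed combination against PBS (IFIT1, 0.55%). They were 9 for the combination against elesclomol (0.83%) and 10 for any difference (1.77%). The 9 were DDX60, EIF2AK2, IFI6, IFIT1, IFIT3, MX1, MX2, PARP14 and XAF1. Leaving out single libraries gave 0 to 1 genes for any difference, the 1 being DDX60 without delayed combination 1. The cause was not tested.

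Leaving out single libraries moved the median from -0.281 (without combination 2) to -0.15 for the combination against PBS, from -0.344 (without combination 3) to -0.202 for the combination against elesclomol, and from 0.035 (without elesclomol 2) to 0.173 for elesclomol against PBS. The interaction median was -0.156 with a mean of 3 log2 CPM required and -0.457 with the host marker covariate. With the replicate number as a block, 0 genes passed in each comparison and the median was -0.166 for the combination against PBS and -0.162 for the combination against bortezomib. A fit of only those last 2 groups with the replicate block, added after seeing the data, called 0 genes with a median of -0.16. Depth limits the lowest genes most: IFIT1, DDX60, IFI44L, RSAD2 and IRF9 rest on 3 to 58 reads per library.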
